A study of Caenorhabditis elegans with 2 samples.

Results

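Meiotic chromosome and recombination genes were followed in a table of poly(A) tail lengths from wild-type Caenorhabditis elegans larvae. The set was defined by gene name and covers the synaptonemal complex, the chromosome axis, cohesin, homologue pairing, and the formation and repair of DNA breaks. Of 43 names, 42 had a row, out of 13601 genes in the table; chk-2, a kinase gene, had no matching row and was not analysed here. The animals were of the N2 Bristol strain with no mutation or treatment, grown at 25 °C and taken whole at the middle of the fourth larval stage (L4), 29 h into a synchronized culture. The labels give 2 biological replicates, which the table pools, so every value below is 1 pooled value with no replicate error. The measurement, mTAIL-seq, ligates an adapter to RNA 3′ ends that carry poly(A) and reads the length of each tail; 1 tail read is called a tag. The table holds 17376490 tags, with tails called from 5 to 231 nt, and the 42 genes hold 12835 of them, or 0.0739%.

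In meiosis, homologous chromosomes find each other, are held together along their length by the synaptonemal complex, and exchange DNA through breaks that are repaired as crossovers. Each chromosome is organized on an axis of cohesin and HORMA-domain proteins, which the synaptonemal complex joins to that of its partner. In C. elegans this happens in the germ line, where cells in successive meiotic stages lie in order along the gonad, and at L4 the hermaphrodite gonad holds many cells in meiotic prophase. The poly(A) tail at the end of an mRNA binds poly(A)-binding proteins, and its length in the germ line is known to be changed by cytoplasmic poly(A) polymerases such as GLD-2 and by deadenylases. Because whole animals were used, fewer cells of a type and less RNA per cell cannot be told apart in a tag number. Genes of this set that are also used in dividing somatic cells may draw tags from germ line and soma, which the pool does not separate. Of 14 stage and tissue marker genes 13 had a row, all but vit-5. The germline genes glp-1, gld-1 and pgl-1 had 312, 430 and 2589 tags, and the sperm genes msp-3, msp-19 and spe-11 had 617, 61 and 64. The yolk genes vit-2 and vit-6, known for their expression in adults, had 110 and 73 tags. The remaining markers, of somatic tissues, were myo-3, dpy-7, unc-119, bli-1 and elt-2, with 3222, 752, 393, 259 and 196 tags.

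Taken as a set, meiotic genes had tails of ordinary length. Of the 42 genes, 34 had at least 100 tags, from 116 for zim-2 to 1067 for him-1, and the median of their 34 median tail lengths was 82 nt. It was 80 nt over all 8803 genes with at least 100 tags, and also 82 nt over the 6409 other genes with 116 to 1067 tags. The middle 50% of the analysed meiotic genes lay between 72 and 92.8 nt, against 69 to 91 nt over all genes. A gene is called above or below when the 95% interval of its own median lies wholly on that side of 80 nt. By this measure 14 of the 34 genes (41.2%) were above, where 35% of all genes and 38.8% of other genes in the same tag range were. Another 9 (26.5%) were below, where 36.7% of all genes and 29% of genes in the tag range were, and the intervals of the last 11 included 80 nt. These shares are near the background. The choice of 80 nt gives each gene equal weight. Against the median over all tags, 58 nt, 7 of the 9 genes called below lie above and none lies below. The middle 50% of all genes, 69 to 91 nt, also lies above 58 nt.

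Individual genes spread widely around that centre. Medians of the analysed genes ran from 61 nt for zhp-3 to 122 nt for him-3. Genes called above whose medians also lay at least 20 nt over the centre numbered 5 of 34 (14.7%), against 12.6% of all genes and 14.2% in the tag range, and were him-3, zim-1, syp-4, atl-1 and com-1. At least 20 nt below the centre there were 0 of the 34, against 11.8% of all genes and 8.8% in the tag range. The other 8 genes had 59 to 99 tags. Of them 5 were above, 1 was below and 2 had intervals that included 80 nt. Over all 13601 listed genes, 30.8% were above and 27.8% below. Such shares were not computed for genes under the tag minimum alone. Among the 8 meiotic genes under it, syp-1 missed the minimum by 1 tag, with 99, and had the highest median of all 42 genes. The analysed gene nearest to the minimum was zim-2, with 116 tags.

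**Figure D1:**
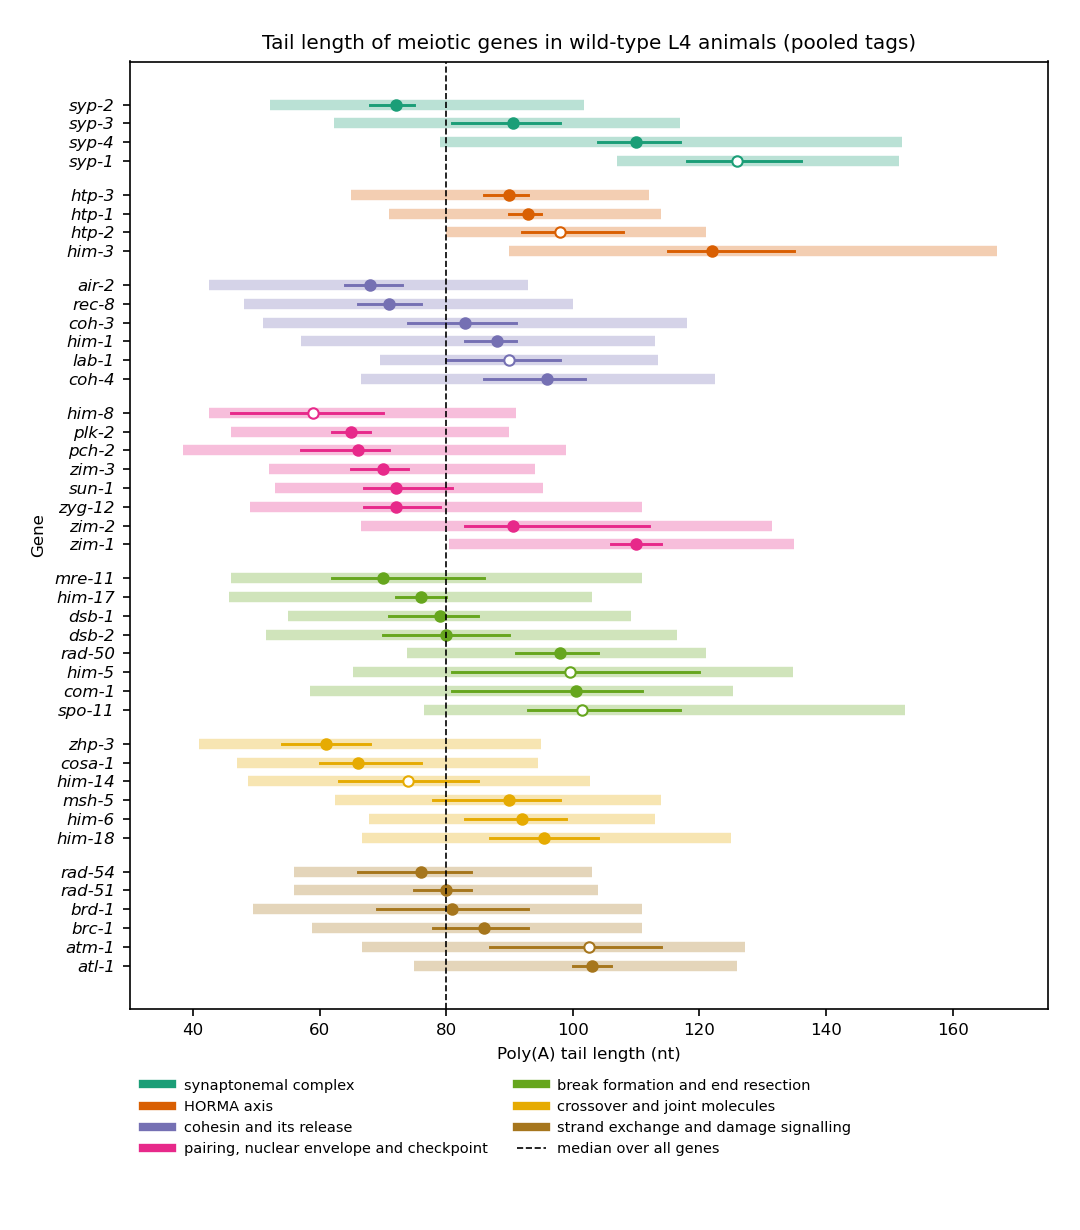
Tail length (nt, horizontal axis) of the 42 meiotic genes, grouped by role. Points are medians over pooled tags (open where a gene has fewer than 100 tags), thin lines 95% intervals of the median, pale bars the middle 50% of tags, and the dashed line the median over all genes, 80 nt; the points run from 59 nt (him-8) to 126 nt (syp-1), and every role group except the HORMA axis has points on both sides of the line.

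The 4 syp genes of the set encode central components of the synaptonemal complex that depend on each other for assembly. Their tails differed strongly from one another. Tails of syp-1 had a median of 126 nt (95% interval 118 to 136 nt, 99 tags). Those of syp-4 had a median of 110 nt (104 to 117 nt, 637 tags). For syp-3 the median was 90.5 nt (81 to 98 nt, 274 tags). In syp-2 it was 72 nt (68 to 75 nt, 474 tags), below the centre, although with mean tail lengths in place of medians this gene no longer lay below. The order was thus syp-1, syp-4, syp-3 and syp-2, and no 2 of the 4 intervals overlapped, although those of syp-1 and syp-4 lay next to each other. Tails over 100 nt made up 81.8% of syp-1 tags (73.1 to 88.2%), against 25.5% of syp-2 tags (21.8 to 29.6%). None of the 99 syp-1 tags was under 30 nt, which, taking 3 tags as the limit that a count of 0 allows, permits a share of up to 3.03%. The syp-3 call rests on its lower bound of 81 nt and was lost when genes with fewer tags entered and moved the centre to 81 nt. In the WBcel235 annotation the loci of syp-1 and syp-3 overlap F13A7.14 (76 nt, 192 tags) and mrt-1 (71 nt, 341 tags), and the sources used here do not state whether strand was used in the counting.

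Genes of the HORMA-domain axis proteins all had intervals above the centre, 3 of 3 analysed and also htp-2, which had fewer than 100 tags. Among all genes 35% were above, and 38.8% of other genes in the tag range. The HORMA-domain family coats meiotic chromosome axes and controls synapsis and the choice of repair partner. The longest was him-3, with a median of 122 nt (115 to 135 nt, 347 tags), at percentile 98.9 of the 8803 genes. Its middle 50% of tags spanned 90 to 167 nt, and 8.07% of its tags were at 231 nt, the longest callable length, so its upper tail is cut there. For htp-3, which is needed to load the other HORMA proteins, the median was 90 nt (86 to 93 nt, 585 tags). The closely related genes htp-1 and htp-2 had medians of 93 nt (90 to 95 nt, 734 tags) and 98 nt (92 to 108 nt, 77 tags), with overlapping intervals. These genes are known as near-identical paralogues, and how tags were divided between them was not tested. The htp-1 tags were also narrowly spread, with an SD of 33.4 nt between tags against a median SD of 39.7 nt over genes.

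Cohesin genes and those that act on its release lay on both sides. Cohesin is the ring that holds sister chromatids together, and its kleisin subunit exists in meiotic forms. The kleisin gene rec-8 had a median of 71 nt (66 to 76 nt, 542 tags), below the centre; with a minimum of 400 tags, which moved the centre to 76 nt, it no longer was. The other meiotic kleisin genes, coh-3 and coh-4, had medians of 83 nt (74 to 91 nt, 264 tags) and 96 nt (86 to 102 nt, 211 tags). Only coh-4 was called above, and its interval did not overlap that of rec-8. The genes coh-3 and coh-4 are known as close paralogues, and coh-4 overlaps Y45G5AM.7 (57 nt, 211 tags) in the annotation; how tags were divided between them was not tested. The SMC1 subunit gene him-1, which serves both mitotic and meiotic cohesin and had the most tags of the set, had a median of 88 nt (83 to 91 nt, 1067 tags). Tails of air-2, the Aurora B kinase gene whose product triggers cohesin release, were short, with a median of 68 nt (64 to 73 nt, 507 tags). For lab-1, whose product keeps AIR-2 off part of each chromosome, the median was 90 nt (80 to 98 nt, 59 tags), and its locus overlaps T05F1.11 (96.5 nt, 208 tags).

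Pairing, nuclear envelope and checkpoint genes held the most genes called below, 4 of 7 analysed (57.1%). Among all genes 36.7% were below, and 29% of other genes in the tag range. Each chromosome end that leads pairing, the pairing centre, is bound by 1 of a family of zinc-finger proteins, encoded by him-8, zim-1, zim-2 and zim-3. In the annotation these 4 genes lie next to each other on chromosome IV with no protein-coding gene between them, in the order him-8, zim-3, zim-2, zim-1. Their medians were, in that order, 59 nt (46 to 70 nt, 87 tags), 70 nt (65 to 74 nt, 393 tags), 90.5 nt (83 to 112 nt, 116 tags) and 110 nt (106 to 114 nt, 498 tags). The intervals of him-8 and zim-3 overlapped, as did those of zim-2 and zim-1, and those of zim-3 and zim-2 did not. The shares of tails over 100 nt were 20.7% in him-8, 19.6% in zim-3, 44.0% in zim-2 and 59.4% in zim-1. The zim-2 call is fragile, since it was lost when tails at 231 nt, 3.45% of its tags, were left out. The 4 proteins belong to 1 family; how tags were divided between related genes was not tested.

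The nuclear envelope bridge that moves pairing centres is built of SUN-1, in the inner membrane, and ZYG-12, in the outer. Both genes had a median of 72 nt, from 244 tags for sun-1 (67 to 81 nt) and 409 tags for zyg-12 (67 to 79 nt). Their distributions around it differed in width. The SD between tags was 28.7 nt for sun-1, at percentile 5.55 of all genes, and 49.5 nt for zyg-12, at percentile 88.5. Tails over 150 nt made up 0.41% of sun-1 tags and 11.7% of zyg-12 tags. The calls of this pair depended on the measure: zyg-12 was below by its median and not by its mean (85.8 nt) or with higher tag minimums, whereas sun-1 was below by its mean (75.3 nt) and not by its median, unless all listed genes entered. The polo-like kinase gene plk-2, whose product is recruited to pairing centres, had a median of 65 nt (62 to 68 nt, 757 tags), with only 0.66% of tails over 150 nt. That of pch-2, an AAA+ ATPase gene whose product remodels HORMA-domain proteins, was 66 nt (57 to 71 nt, 219 tags). It had the largest share of tails under 30 nt in the set, 10.5% (7.1 to 15.3%), and its locus overlaps emb-27 (67 nt, 399 tags).

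**Figure D2:**
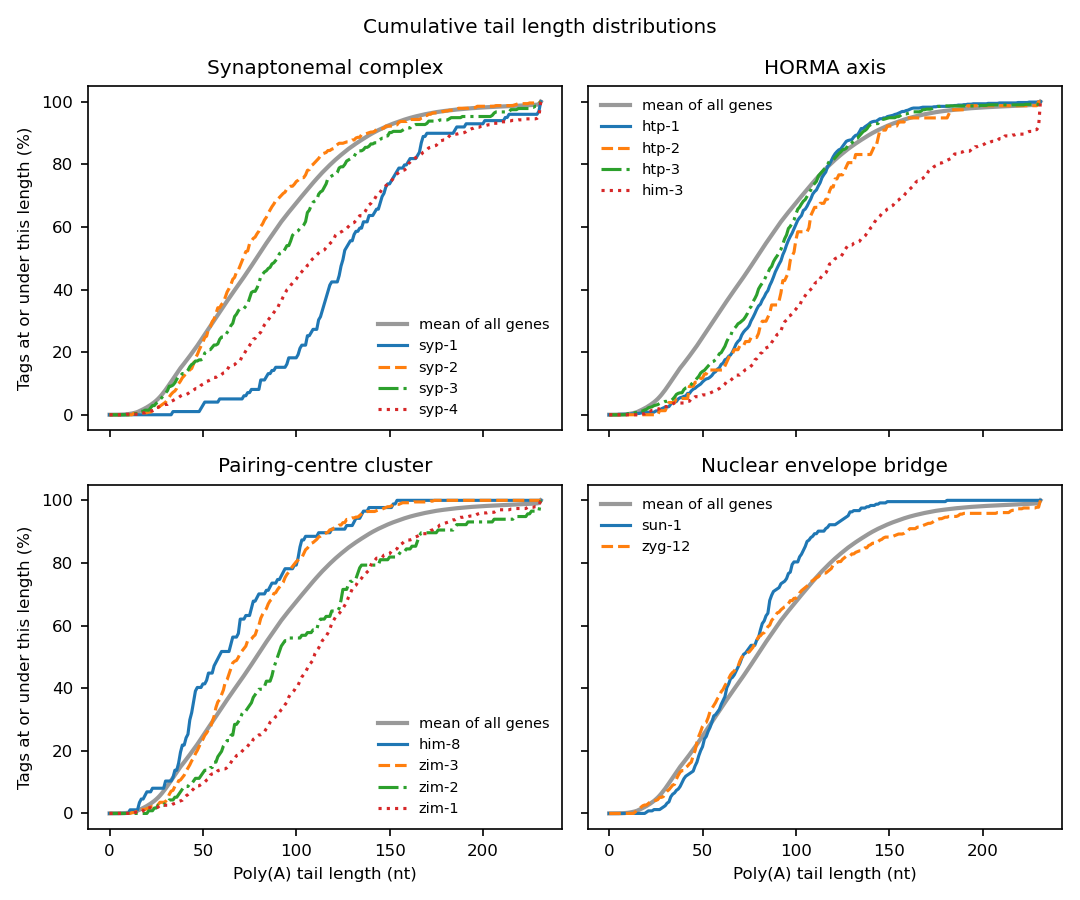
Cumulative share of tags (%, vertical axis) at or under each tail length (nt, horizontal axis) for 4 role families, each against the mean curve of all genes with at least 100 tags (grey). At their medians, syp-1 (126 nt) and him-3 (122 nt) lie to the right of the other genes of their families, the 4 pairing-centre genes spread from him-8 (median 59 nt) to zim-1 (110 nt), and sun-1 and zyg-12 cross near their common median of 72 nt.

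Of the 6 analysed genes for break formation and the first processing of ends, 2 had intervals above the centre. Another 4 had intervals that included it and 0 had intervals below it. Among all genes 35% were above and 36.7% below, and in the tag range 38.8% and 29%. The break-making enzyme gene spo-11 had a median of 101.5 nt (93 to 117 nt) from 88 tags. Its locus overlaps enpl-1, a far more abundant gene with 11525 tags and a median of 69 nt. The related accessory genes dsb-1 and dsb-2, needed for SPO-11 breaks, had medians of 79 nt (71 to 85 nt, 264 tags) and 80 nt (70 to 90 nt, 179 tags). Their loci overlap acl-13 (99 nt, 48 tags) and exl-1 (59 nt, 1011 tags). For him-5, which promotes breaks on the X chromosome, the median was 99.5 nt (81 to 120 nt) from 62 tags. The chromatin factor gene him-17, also needed for breaks, had a median of 76 nt (72 to 80 nt, 648 tags). Its interval just reached the centre, and it lay below by its mean of 77.9 nt, by log2 means and when genes with fewer tags entered. MRE-11 and RAD-50 form 1 complex that trims break ends, yet their genes differed. Tails of mre-11 had a median of 70 nt (62 to 86 nt, 168 tags) and those of rad-50 a median of 98 nt (91 to 104 nt, 188 tags), with intervals that did not overlap. The com-1 gene, whose product works with this complex, had a median of 100.5 nt (81 to 111 nt, 124 tags). That call was lost when tails under 20 nt were left out or genes with fewer tags entered, as the centre then moved to 81 or 82 nt. None of the com-1 tags was under 30 nt, which by the same limit of 3 tags permits a share of up to 2.42%.

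Crossover genes fell on both sides of the centre. Of the 5 analysed, 2 (40%) were above and 2 (40%) below. Among all genes 35% were above and 36.7% below, and in the tag range 38.8% and 29%. Genes for the late crossover markers were below: zhp-3, a RING-domain protein gene, had a median of 61 nt (54 to 68 nt, 249 tags), and cosa-1, a cyclin-like protein gene, one of 66 nt (60 to 76 nt, 147 tags). The MutS-family genes him-14 and msh-5, whose products act as a pair on recombination intermediates, had medians of 74 nt (63 to 85 nt, 62 tags) and 90 nt (78 to 98 nt, 131 tags). Their intervals overlapped each other and the centre. The 2 genes above have products that help to resolve or undo joint molecules. They were him-6, the BLM helicase gene, at 92 nt (83 to 99 nt, 160 tags), and him-18, the SLX4 nuclease scaffold gene, at 95.5 nt (87 to 104 nt, 140 tags). In the annotation, cosa-1 overlaps Y71H2AM.12 (84 nt, 82 tags), him-14 overlaps nos-2 (78 nt, 23 tags) and him-18 overlaps T04A8.18 (83.5 nt, 116 tags).

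In strand exchange and damage signalling, the kinase genes had the higher medians. The ATR kinase gene atl-1 had a median of 103 nt (100 to 106 nt, 673 tags), at percentile 90.9 of all genes, and 52.9% of its tails exceeded 100 nt. For atm-1, the ATM kinase gene, the median was 102.5 nt (87 to 114 nt, 96 tags). None of its tags was under 30 nt, which by the limit of 3 tags permits a share of up to 3.12%. The recombinase gene rad-51 had a median of 80 nt (75 to 84 nt, 321 tags), equal to the centre. Its partner rad-54 was at 76 nt (66 to 84 nt, 252 tags). The ubiquitin ligase genes brc-1 and brd-1, orthologues of BRCA1 and BARD1, had medians of 86 nt (78 to 93 nt, 148 tags) and 81 nt (69 to 93 nt, 135 tags). The intervals of these 4 repair genes all included the centre and overlapped one another. That of atl-1 overlapped none of them, and that of atm-1 overlapped those of brc-1 and brd-1.

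**Figure D3:**
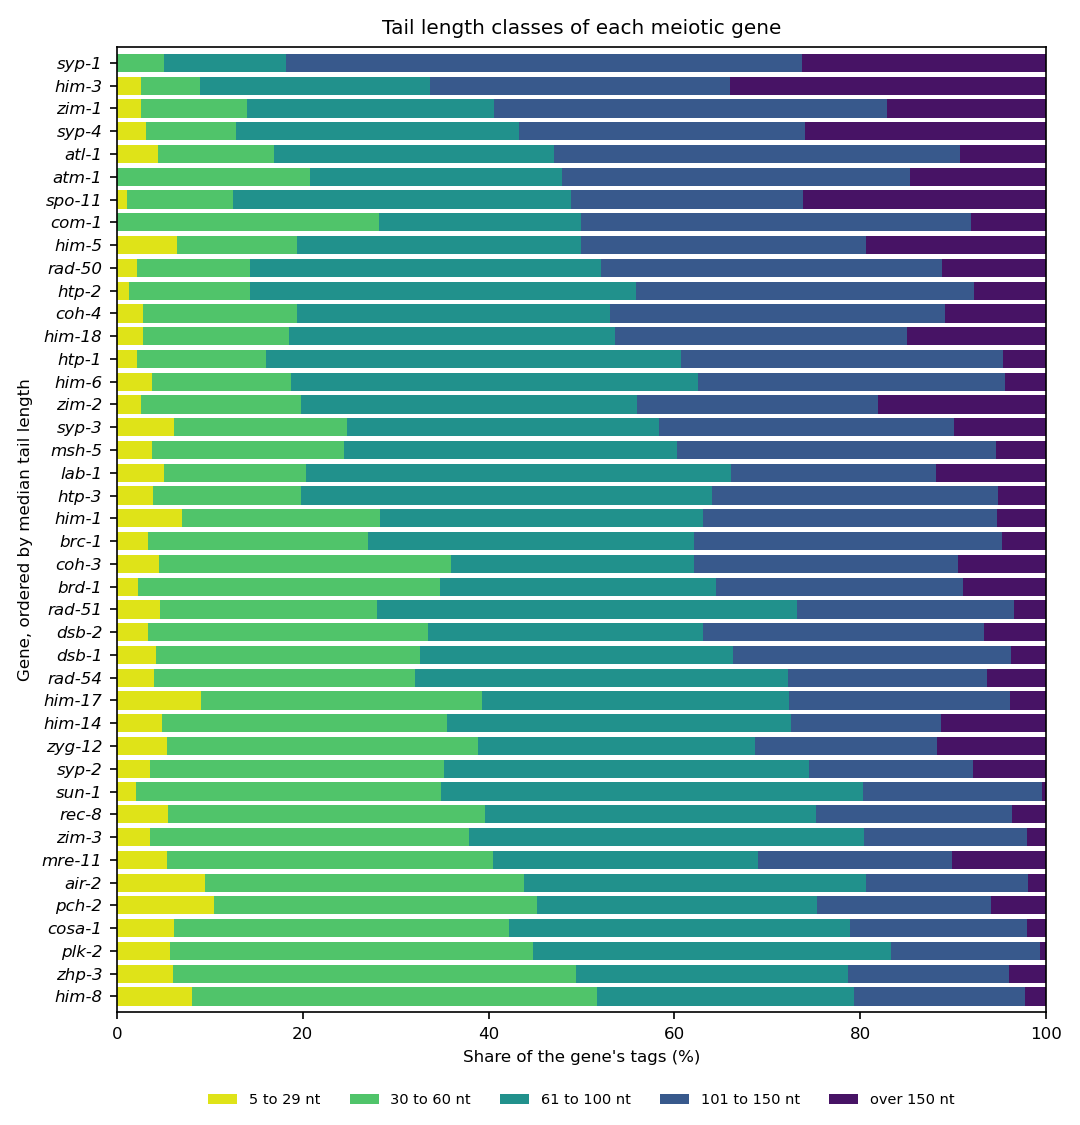
Share of each gene's tags (%, horizontal axis) in 5 tail length classes, with the 42 genes ordered by median from him-8 at the bottom to syp-1 at the top. Tails over 150 nt (darkest) reach 34.0% in him-3, 26.3% in syp-1, 26.1% in spo-11 and 25.9% in syp-4, and stay at 0.66% in plk-2 and 0.41% in sun-1.

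Short tails took a smaller share of the tags in most genes of the set than in most genes of the table, a pattern that was seen and defined after the values were known. Among the 34 analysed genes the median share of tails under 30 nt was 3.87%, against 6.34% over all genes and 6.25% over other genes in the tag range. Shares under 6.34% were found in 30 of the 34 genes (88.2%), where 50% of all genes and 51.1% of those in the tag range lie under it. The exceptions were pch-2 at 10.5%, air-2 at 9.47%, him-17 at 9.1% and him-1 at 7.03%. Counting error matters for such shares. The Wilson interval lay wholly under 6.34% in 13 of the 34 (38.2%), against 22.8% of all genes and 20.7% in the tag range. It lay wholly over 6.34% in 3 of the 34, against 28.8% of all genes. The latter share was not computed for the tag range. All genes include some with up to 322583 tags, whose intervals are narrower and more readily called. With limits of 20 and 40 nt in place of 30 nt, 25 and 28 of the 34 lay under the respective medians over genes. The 8 genes with fewer tags had 6 under 6.34%. Tails over 100 nt were less one-sided, with 20 of the 34 genes (58.8%) above the median over genes of 31.8%, where 50% of all genes lie above it. The median share over 100 nt was 36.4% in the 34 genes and 34.1% in other genes of the tag range. How many of the latter lie above 31.8% was not computed. No library could be set apart in the pool, and whether RNA quality or fragment selection bears on the short tails was not tested.

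**Figure D4:**
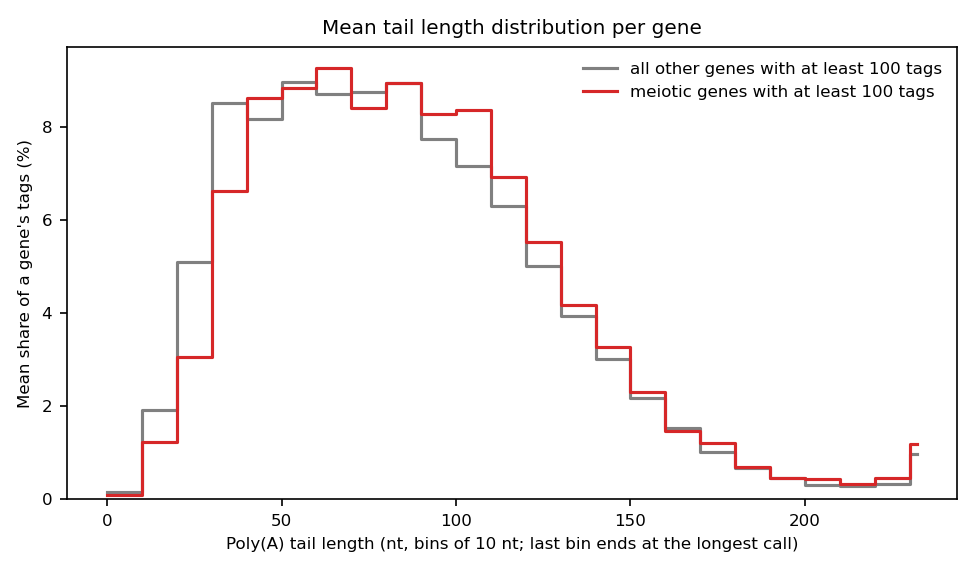
Mean share of a gene's tags (%, vertical axis) in bins of 10 nt of tail length (horizontal axis), each gene with equal weight, for the 34 meiotic genes (red) and all other genes with at least 100 tags (grey). The red line lies lower at 20 to 29 nt (3.05% against 5.1%) and 30 to 39 nt (6.61% against 8.51%) and higher at 100 to 109 nt (8.36% against 7.15%); the last step is tails of 230 and 231 nt.

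Among the 34 analysed meiotic genes, median tail length showed little relation to tag number, whereas over all genes, with a wider range of tags, it fell with tag number. Spearman's rho between tags and median was -0.05 across the 34 genes and -0.30 across all 8803. Pearson's r with log2 tags was 0.02 and -0.35. The 34 genes span a narrow range of tags, and the same values were not computed for other genes in that range. Whether meiotic genes differ from those in this respect was thus not tested. Abundance and length were read from the same tags, so these values describe the pool and carry no test. Gene length in the annotation went weakly with the median, with rho of 0.25 across the 34 genes and 0.44 across 8779 genes with a length. The longest locus of the set is that of atm-1 (25105 nt), followed by atl-1 (10614 nt), whose medians were 102.5 and 103 nt. The shortest loci are those of lab-1 (1012 nt), syp-3 (1073 nt) and dsb-2 (1124 nt), whose medians were 90, 90.5 and 80 nt. None of the 42 genes lies on the X chromosome, which holds 13.4% of the listed genes with a chromosome. Chromosome IV holds 13 of them (30.95%, against 17.2% of listed genes), and chromosomes I and V hold 10 each (23.8%, against 16.4% and 20.1%).

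**Figure D5:**
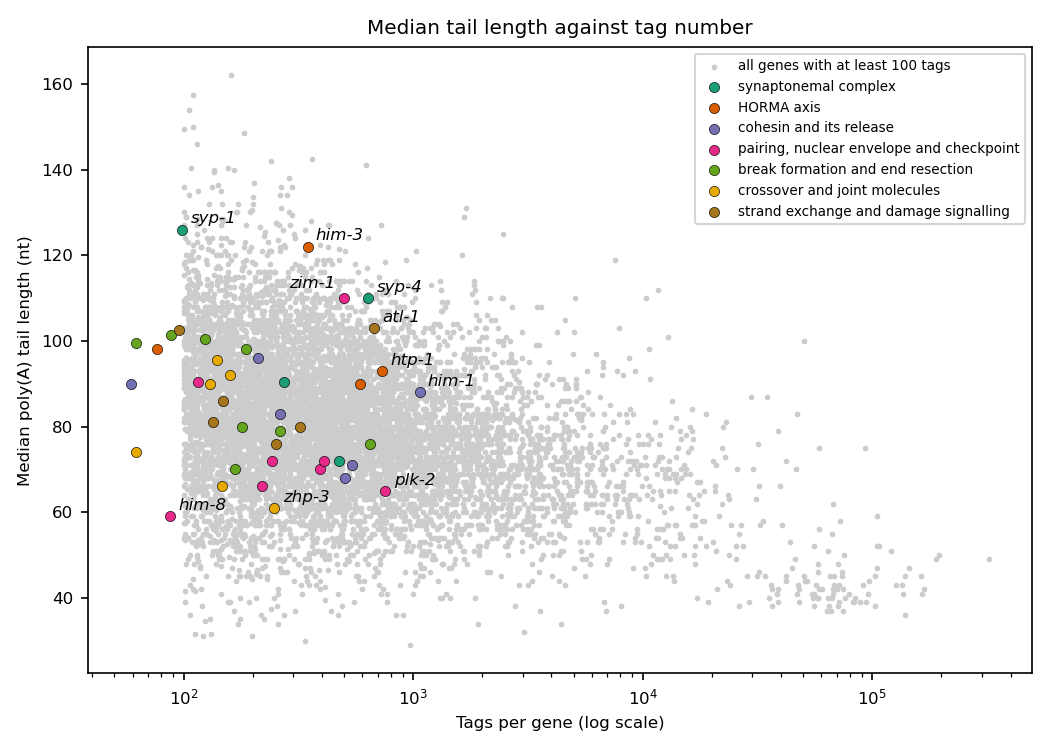
Median tail length (nt, vertical axis) against tags per gene (log scale, horizontal axis) for all genes with at least 100 tags (grey) and the 42 meiotic genes, coloured by role. The meiotic genes span 59 to 1067 tags and spread from 59 to 126 nt without a visible slope. The grey cloud extends to far more tags and falls toward its most abundant genes.

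Related gene lists gave a point of comparison. Of 60 other genes of meiosis, cohesin and DNA repair, 46 had a row and 40 had at least 100 tags. Their gene medians centred on 76 nt. By the same interval rule 13 (32.5%) were above 80 nt and 15 (37.5%) below, near the 35% and 36.7% of all genes. Their most abundant members were rpa-2, a subunit gene of the single-strand DNA-binding protein RPA, at 66 nt (64 to 67 nt, 5722 tags) and ubc-9, the SUMO-conjugating enzyme gene, at 79 nt (77 to 81 nt, 2698 tags). The mismatch repair gene msh-2 was the shortest, at 58 nt (54 to 62 nt), and the SUMO ligase gene gei-17 the longest, at 108 nt (98 to 114 nt). Their median share of tails under 30 nt was 5.78%, and 23 of the 40 lay under 6.34%, where 50% of all genes do.

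Cell cycle and DNA replication genes, with 54 of 57 analysed, centred on 75.5 nt. Of these, 7 (13%) were above 80 nt and 25 (46.3%) below, against 35% and 36.7% of all genes. The list ran from the cyclin gene cyb-2.2 at 50 nt (45 to 60 nt) to the cyclin D gene cyd-1 at 115 nt (108 to 126 nt). Its most abundant genes were pcn-1, the PCNA gene, at 65 nt (64 to 69 nt, 1686 tags) and spd-5, a centrosome scaffold gene, at 73 nt (70 to 76 nt, 1567 tags). Germline RNA regulators and P granule genes, with 39 of 52 analysed, centred on 74 nt, and 12 (30.8%) were above and 19 (48.7%) below. Among them the Vasa-related helicase gene glh-1 was at 74 nt (73 to 76 nt, 3254 tags) and pgl-1 at 69 nt (67 to 70 nt, 2589 tags), and the range ran from the cap-binding gene ife-1 at 51 nt (50 to 53 nt) to the PUF-family regulator gene fbf-2 at 110 nt (98 to 117 nt). Shares of tails under 30 nt lay under 6.34% in 31 of the 54 cell cycle genes and in 21 of the 39 germline regulators, against 50% of all genes. The differences between these lists and the meiotic set of 34 genes were not tested, since the lists were chosen with results known and the table has no replicates.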

How the data were processed

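Poly(A) tails were measured by mTAIL-seq in 2 biological replicates of 1 group. Per the labels' protocols, the authors called tail lengths with tailseeker2 from fluorescence signals. STAR and bedtools are named in the submitters' processing notes; no version, genome build or annotation is stated in what was used here. The deposited table gives a count of tail calls (tags) per gene, not normalized, and lists every tail length of the gene, in nt. It does not tell the replicates apart, so the depth per replicate is unknown, no replicate could be left out and no test between samples was possible.

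Members were matched by the table's own gene alias. The members and the comparison lists were chosen with earlier results of these data known. Each list was recounted, and 0 of 13601 genes differed from the deposited count, mean, median or SD. Genes with at least 100 tags were analysed (8803 genes). Each median has a distribution-free 95% interval from binomial order statistics of the gene's tags, and shares have Wilson 95% intervals, except that a share of 0 is given the limit of 3 tags over the gene's tags. These cover counting error only, and PCR copies, if not collapsed, would make them too narrow. In each comparison list the genes named are the 2 with the most tags, the shortest and the longest; all members are named. Alternatives changed the tag minimum, the value per gene, the tails entering, the centre and the members. Chromosomes, gene lengths and neighbouring genes came from the RefSeq table for WBcel235, matched on sequence name (13549 of 13601 genes), which may differ from the authors' build. Python 3.11.15, pandas 2.3.3, numpy 2.4.6 and scipy 1.17.1 were used.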

Additional observations from a re-analysis of the deposited data

How the results depend on the processing

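The median over the meiotic genes stayed between 76.9 and 87.6 nt under all 10 alternatives. These ends came from log2 means, with a centre of 73.9 nt, and from means, with a centre of 84.2 nt. In the alternative centred on the median over all tags, 58 nt, the set lay 24 nt above. Against the centre over genes of each other alternative, it lay 0 to 6 nt above. The distance was 0 nt with a minimum of 200 tags or without htp-1, htp-2, coh-3 and coh-4, and 6 nt with minimums of 50 or 400 tags. Counts moved more. With minimums of 200 and 400 tags, which leave 23 and 12 of the genes, 9 and 6 genes were above the centre, 19 and 9 had few tails under 30 nt, and with 400 tags 3 were below and 3 were at least 20 nt above; fewer genes entered and the centre moved to 79 and 76 nt, and with 400 tags rec-8 and zyg-12 lost their calls. With a minimum of 50 tags or all listed genes, 2 genes were at least 20 nt below. By mean tail length and by mean of log2(tail length + 1), 3 genes were at least 20 nt above in each case. Centred on the median over all tags, 58 nt, 32 genes were above, 0 below and 21 at least 20 nt above. The shares of all genes at this centre were not computed, and the lower quartile of all gene medians, 69 nt, also exceeds it. Because the centre is lower, the calls of air-2 (68 nt), cosa-1 (66 nt), plk-2 (65 nt), rec-8 (71 nt), syp-2 (72 nt), zim-3 (70 nt) and zyg-12 (72 nt) reversed. The median over the HORMA axis genes was 86.5 nt by log2 means, where the centre over genes was 73.9 nt. That over cell cycle genes was 79.0 nt by means and 70.5 nt by log2 means, where the centres were 84.2 and 73.9 nt. Over the other meiosis genes it was 69.8 nt with a minimum of 400 tags, where the centre was 76 nt. The cause of these moves was not tested. The alternatives for shares of short tails and for the lists were chosen after seeing the data. No paired analysis was possible because the table pools the replicates of 1 group; leaving out a replicate was not run for the same reason. Depth limits the calls of rarer genes: the interval of the median was 30 nt wide for com-1 (124 tags) and 5 nt wide for htp-1 (734 tags).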
